A study of Rattus norvegicus with 6 samples.

Results

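The myomiRs of heart and skeletal muscle, 8 miRNAs, were followed in plasma exosomes of rats. They were taken by name from the 763 mature rat miRNAs of the deposited count table, and all 8 were found. Male Sprague-Dawley rats aged 7 to 8 weeks gave the plasma. RIPC-EXO (R-exo, 3 libraries) came from rats whose hind limbs had gone through 4 cycles of 5 min of ischemia and 5 min of reperfusion under an elastic band, and blood was drawn 48 h later. Control-EXO (C-exo, 3 libraries) came from control rats without RIPC, bled at the same time. Sodium pentobarbital was the anesthetic, given for RIPC and, in both groups, for the drawing of blood. Whether control rats were also anesthetized at the time of RIPC is not given in the sources used here, and no genetic change is named for either group. Whether a library held the plasma of 1 rat or of several is not given in the sources used here, so p-values measure the spread between these libraries.

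miRNAs are short RNAs that repress transcripts through their seed, bases 2 to 8 counted from 1 at the 5′ end. miR-1 and miR-133a are made in both heart and skeletal muscle under the control of SRF, MEF2 and MyoD. miR-206 and miR-133b are made in skeletal muscle. miR-208a, miR-208b and miR-499 lie in introns of myosin heavy chain genes, of which Myh6 is the fast cardiac form and Myh7 the slow form of heart and slow fibres. These miRNAs are released into blood when muscle is injured or exercised, and are much used as plasma markers of muscle and heart.

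The mature sequences (RefSeq, assembly GRCr8) are shown because miR-1-3p with miR-206-3p, and miR-133a-3p with miR-133b-3p, share a seed and stood in the same or nearly the same order over the libraries, whereas the pairs made from neighbouring stem-loops, and the miR-208 pair, did not. Capitals mark the seed, and all 8 members matched an entry. miR-1b, which is not a member, is added because it differs from miR-1-3p by a single base. miR-1b shares the seed of miR-1-3p, but the libraries stood in another order for it. miR-133a-5p has a different seed from miR-133b-3p, and the libraries stood in the same order for both.

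rno-miR-1-3p: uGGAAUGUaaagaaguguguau

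rno-miR-206-3p: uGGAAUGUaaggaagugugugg

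rno-miR-1b: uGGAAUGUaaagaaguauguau

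rno-miR-133a-3p: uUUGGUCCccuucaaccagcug

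rno-miR-133b-3p: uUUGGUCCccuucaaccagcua

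rno-miR-133a-5p: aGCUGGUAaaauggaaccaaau

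rno-miR-208a-3p: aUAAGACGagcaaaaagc

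rno-miR-208b-3p: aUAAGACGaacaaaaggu

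rno-miR-499-5p: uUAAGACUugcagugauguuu

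The seed of miR-1-3p was held by 3 of the 693 mature rat miRNAs in RefSeq, namely miR-1-3p, miR-206-3p and miR-1b. From miR-1-3p to miR-206-3p the substitutions were A11G, A21G and U22G, and from miR-1-3p to miR-1b the only one was G17A, with the base of miR-1-3p first. miR-133a-3p and miR-133b-3p shared a seed with no other entry and differed at the last base alone (G22A, base of miR-133a-3p first). A read that lacks this base fits both, and the handling of such reads is not given in the sources used here, so the split between miR-133a-3p and miR-133b-3p is uncertain. miR-208a-3p and miR-208b-3p shared a seed, and miR-499-5p differed from it at 1 seed base (G8U, base of miR-208a-3p first).

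In the RefSeq gene table of GRCr8, Mir1 and Mir133a1 lay on the same strand within the span of Mib1, which runs on the other strand. Mir206 and Mir133b were neighbours within 1 long non-coding RNA. Mir208a lay within Myh6, Mir208b within Myh7 and Mir499a within Myh7b, each on the strand of its host. The notes of the submitters name the build rn6, so no coordinates are given.

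Total counts were between 5484209 and 7531737 per library. Levels below are CPM (counts per 1e6 reads, after TMM scaling), and the detection floor of 3 counts came to 0.369 to 0.672 CPM. The members together held 0.178% to 0.918% of the reads of a library. All 8 had reads in every library except miR-208a-3p, which had none in C-exo replicate 1. C-exo replicate 3 stood nearer to R-exo than to its own group over the 404 miRNAs tested, with a Spearman rho of 0.965 to 0.983 with the R-exo libraries and of 0.902 and 0.931 with C-exo replicates 1 and 2. This is a correlation across miRNAs, which are not independent replicates. The lists of miRNAs typical of liver, red cells, endothelium, smooth muscle and blood cells were detected in every library, and of the 3 pancreas miRNAs miR-216a-5p was at 0 in C-exo replicates 1 and 2.

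miR-1-3p, which represses Hdac4 and other brakes on muscle differentiation, had the highest mean level of the members over the 6 libraries, and ranked 51 of the 763 by it, although miR-133a-3p was above it in C-exo replicates 1 and 2. It had 308, 1146 and 7110 CPM in C-exo replicates 1, 2 and 3, and 2329, 1049 and 2453 CPM in R-exo replicates 1, 2 and 3. The C-exo libraries differed 23.1-fold among themselves and enclosed all 3 R-exo libraries, which differed 2.34-fold. miR-206-3p, the skeletal muscle member of the same seed family, had 132, 436 and 1561 CPM in C-exo, against 819, 293 and 1021 CPM in R-exo. Its order was that of miR-1-3p, library for library, from C-exo replicate 1 at the bottom through R-exo replicate 2, C-exo replicate 2, R-exo replicate 1 and R-exo replicate 3 to C-exo replicate 3 at the top. The groups overlapped for both. In a bulk preparation, fewer vesicles from a tissue and less of a miRNA per vesicle cannot be told apart.

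The miR-133 miRNAs, which repress SRF and other regulators of proliferating myoblasts, had another order. miR-133a-3p had 1027, 1239 and 867 CPM in C-exo, against 1801, 280 and 408 CPM in R-exo. Its C-exo libraries were within 1.43-fold of each other, whereas R-exo replicate 1 was above them all and R-exo replicates 2 and 3 were below them all. miR-133b-3p had 627, 272 and 142 CPM in C-exo, against 909, 65.6 and 74.5 CPM in R-exo. miR-133a-5p, the other arm of the miR-133a stem-loop, had 40.8, 15.2 and 11.4 CPM in C-exo, against 141, 3.59 and 4.09 CPM in R-exo. The libraries stood in the same order for miR-133b-3p and miR-133a-5p, from R-exo replicate 2 at the bottom to R-exo replicate 1 at the top. For miR-133a-3p the order was the same apart from an exchange of C-exo replicates 1 and 2. The R-exo libraries differed 39.2-fold in miR-133a-5p and 13.9-fold in miR-133b-3p.

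**Figure D1:**
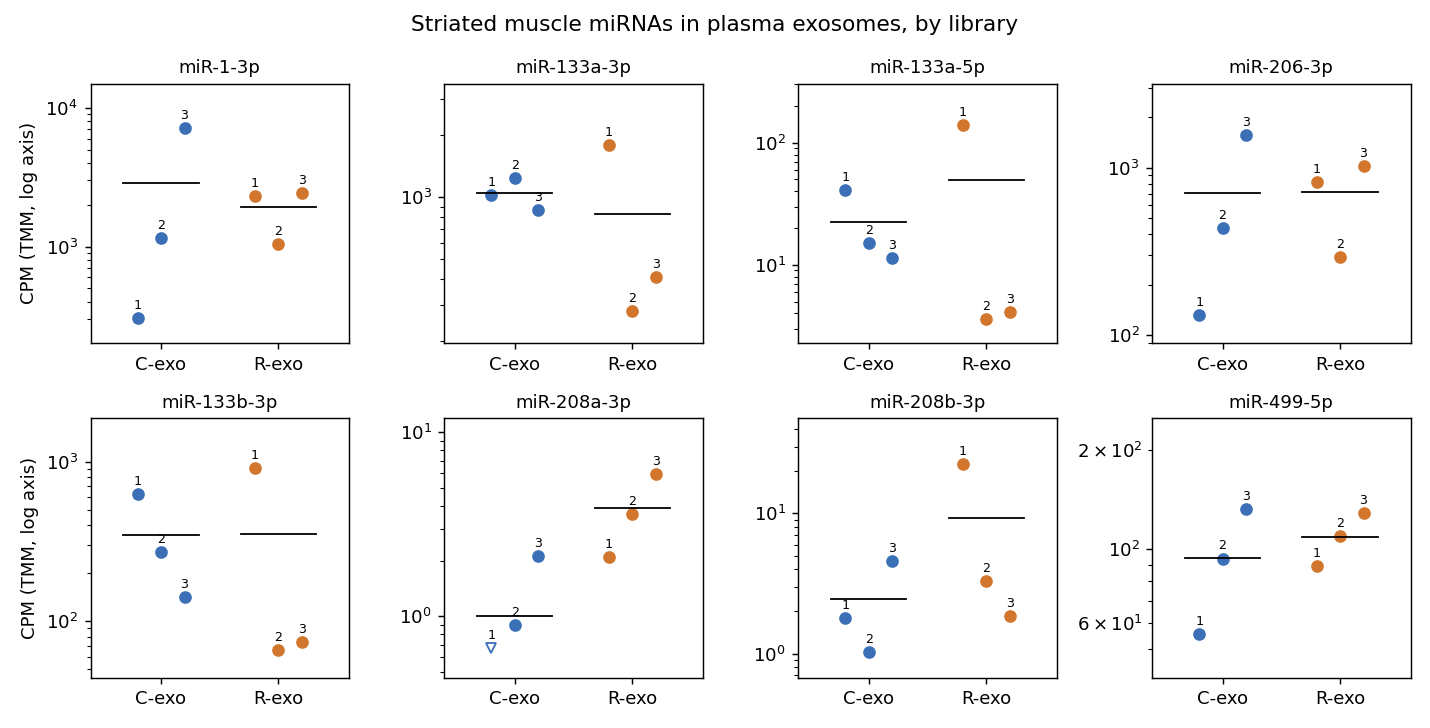
Level of each of the 8 miRNAs in CPM after TMM scaling (log axis) in the 3 C-exo and 3 R-exo libraries, where each point is a library marked with its replicate number, bars are group means, and the open triangle is a library with no read, drawn at the value of 3 counts. For miR-133a-5p and miR-133b-3p R-exo replicate 1 is the highest library and R-exo replicates 2 and 3 the lowest, while for miR-1-3p and miR-206-3p C-exo replicates 1 and 3 are the extremes.

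Of the cardiac and slow-fibre members, miR-499-5p, which comes from Myh7b and is made in heart and slow muscle, was the most abundant and the most even. It had 55.6, 93.8 and 132 CPM in C-exo, against 89.3, 110 and 129 CPM in R-exo, a range of 2.38-fold over the 6 libraries. The SD of its log2 CPM over the libraries was 0.46, which ranked 329 of 404 tested miRNAs from the most variable. The other 7 members ranked between 3 (miR-133a-5p, SD 1.98) and 99 (miR-133a-3p, SD 1.01) on this scale.

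miR-208a-3p, which comes from Myh6 and is largely restricted to cardiac muscle, had few reads, with 0, 7 and 15 reads in C-exo and 17, 25 and 45 reads in R-exo. For the 0 of 5484209 reads in C-exo replicate 1 the Wilson 95% interval reached 0.70 reads per 1e6. Without TMM scaling, in reads per 1e6, C-exo replicate 3 had 1.99 (Wilson 95% interval 1.21 to 3.29) and R-exo replicate 1 had 2.42 (1.51 to 3.88), so the nearest libraries of the groups were not distinguishable by their counts. Intervals cover counting error only, since the reads carry no molecular identifiers and may be PCR copies. The groups did not overlap on this scale, as for 13.6% of the tested miRNAs, but after TMM scaling C-exo replicate 3 (2.13 CPM) was above R-exo replicate 1 (2.09 CPM). miR-208b-3p, from the slow myosin gene Myh7, had 8, 8 and 32 reads in C-exo and 184, 23 and 14 reads in R-exo. R-exo replicate 1, at 26.2 reads per 1e6 (Wilson 95% interval 22.7 to 30.3), stood above the other 5 libraries, the next of which was C-exo replicate 3 at 4.25 (3.01 to 5.998). The other R-exo libraries lay within the range of C-exo.

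**Figure D2:**
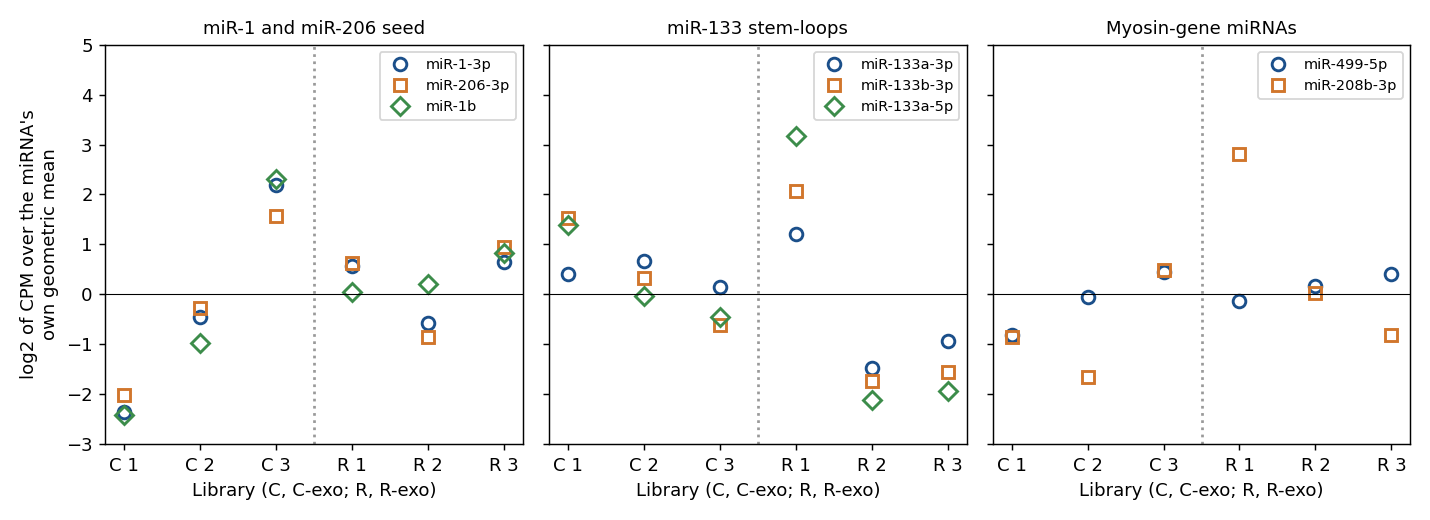
Level of each miRNA in each library as the log2 of its CPM over its own geometric mean across the 6 libraries, in panels for the miR-1 and miR-206 seed family, the miR-133 stem-loops and the miRNAs of myosin genes (miR-208a-3p, with a library at 0, is not drawn). That family runs from -2.41 to 2.32, lowest in C-exo replicate 1 and highest in C-exo replicate 3, and the miR-133 miRNAs from -2.12 in R-exo replicate 2 to 3.17 in R-exo replicate 1.

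Ratios of reads within a library do not depend on scaling. miR-206-3p had 22.0% to 42.8% of the reads of miR-1-3p, a range of 1.95-fold, with a mean of 34.3% ± 10.9 in C-exo and 34.9% ± 6.86 in R-exo (SD, n = 3 each). The groups overlapped, and the mean ratios differed by less than the SD of either group. By contrast, miR-133a-3p, whose gene lies beside that of miR-1, had 12.2% to 334% of the reads of miR-1-3p, a range of 27.4-fold. This ratio was 334%, 108% and 12.2% in C-exo and 77.3%, 26.7% and 16.6% in R-exo. For the other cluster, miR-133b-3p had 7.30% to 476% of the reads of miR-206-3p, a range of 65.1-fold. Both pairs of stem-loop neighbours had a wider range than miR-206-3p against miR-1-3p over the same 6 libraries, and the groups overlapped in each of these ratios.

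Within the miR-133 family the ratios also moved. miR-133b-3p had 61.0%, 21.9% and 16.4% of the reads of miR-133a-3p in C-exo, and 50.4%, 23.4% and 18.3% in R-exo. The reads of miR-133a-5p were 3.97%, 1.23% and 1.31% of those of miR-133a-3p in C-exo, and 7.81%, 1.28% and 1.003% in R-exo. C-exo replicate 1 and R-exo replicate 1 were the highest libraries in both ratios, and the other 4 were close together. Among the myosin-gene miRNAs, miR-208a-3p had 0%, 0.955% and 1.61% of the reads of miR-499-5p in C-exo, and 2.35%, 3.28% and 4.597% in R-exo. The groups did not overlap in this ratio, but the nearest libraries rested on 15 and 17 reads of miR-208a-3p, which their counting intervals did not separate. The ratio of miR-208b-3p to miR-499-5p was 25.4% in R-exo replicate 1 and 1.09% to 3.44% in the other 5 libraries.

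The make-up of the members differed between libraries of the same group. miR-1-3p held 14.0% of the members' reads in C-exo replicate 1 and 72.3% in C-exo replicate 3, and 38.1% to 59.9% in R-exo. The skeletal members, miR-206-3p with miR-133b-3p, held 34.6%, 22.1% and 17.3% in C-exo and 28.3%, 19.8% and 26.7% in R-exo, with means of 24.7% ± 8.93 and 24.9% ± 4.49 (SD, n = 3 each). With miR-133b-3p, whose split from miR-133a-3p is uncertain, counted among the shared members, these means were 11.8% and 18.2%. The cardiac or slow-fibre members held 2.62%, 2.99% and 1.42% in C-exo and 1.87%, 6.44% and 3.34% in R-exo, with means of 2.34% ± 0.823 and 3.88% ± 2.33 (SD, n = 3 each). R-exo replicate 2 was the highest for the cardiac or slow-fibre share, most of it miR-499-5p with 6.06%, and the groups overlapped for both shares. The level of miR-499-5p in that library, 110 CPM, was within the range of the others. The summed level of the members was lowest in that library, at 1808 CPM. The summed level of the 8 members was 2192, 3203 and 9831 CPM in C-exo, against 6112, 1808 and 4097 CPM in R-exo. The group means, 5076 ± 4150 and 4006 ± 2154 CPM (SD, n = 3 each), differed by less than either SD. Without C-exo replicate 3 the C-exo mean was 2698 CPM, below that of R-exo.

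**Figure D3:**
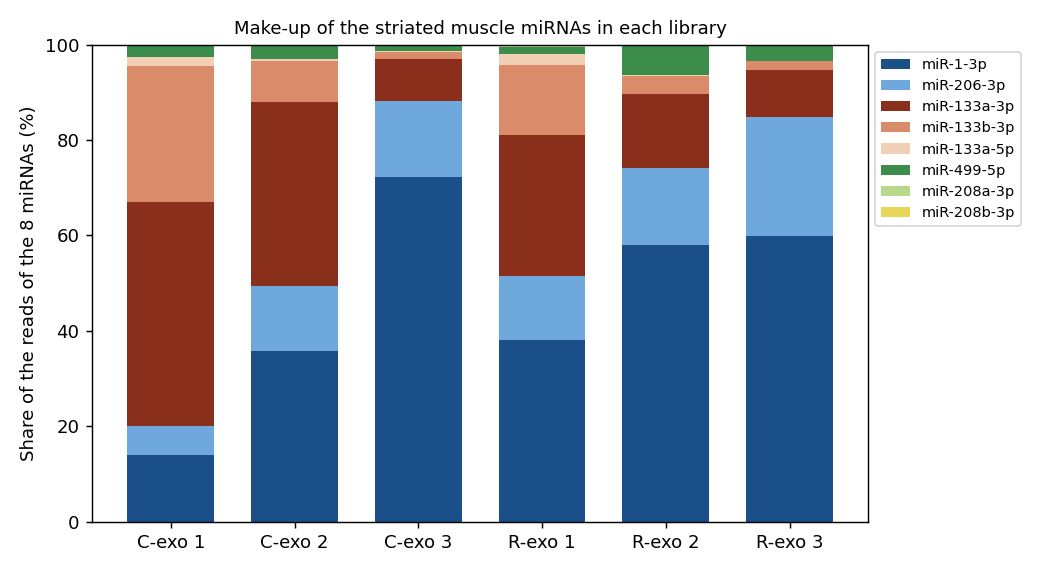
Share (%) of the reads of the 8 miRNAs held by each of them in every library, stacked to 100%, with blue for the miR-1 and miR-206 seed family, red for miR-133 and green for miR-499-5p; miR-208a-3p and miR-208b-3p held at most 0.371% and can hardly be seen. miR-1-3p and miR-206-3p make up 51.5% of R-exo replicate 1 and more of C-exo replicate 3 and R-exo replicates 2 and 3, and the miR-133 miRNAs most of C-exo replicate 1.

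The comparison of R-exo with C-exo asked which miRNAs of plasma exosomes changed at the late phase of RIPC, a procedure that makes the limb muscles ischemic. The study took a fold change above 2 and a p under 0.05 as its criterion, without saying whether p was adjusted, and here p was left unadjusted. By this criterion 0 of the 8 members were called by edgeR's quasi-likelihood test, where 9.41% of the 404 tested miRNAs were called (38, of which 8 were higher and 30 lower in R-exo). At an adjusted p under 0.05 no member and 0% of the tested miRNAs were called. None of the 8 had an unadjusted p under 0.05. DESeq2 called 1 member, miR-208b-3p, and limma-voom 1 member, miR-208a-3p, by the same criterion, where each called 12.1% of the 404 tested miRNAs, and neither gave any member an adjusted p under 0.05. After TMM scaling the groups overlapped in all 8 members, and did not overlap in 12.9% of the tested miRNAs. The median log2 fold change was 0.11 over the members and -0.05 over all tested miRNAs, of which 197 were above and 207 below 0. Of the members 4 were above 0 and 2 below, and the other 2, miR-206-3p and miR-133b-3p, were within 0.01 of it.

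For the shared member miR-1-3p the log2 fold change came to -0.55 (95% interval -2.64 to 1.53, standard error 0.93), with a Benjamini-Hochberg adjusted p = 0.80 in the edgeR quasi-likelihood fit. miR-133a-3p had -0.33 (95% interval -1.85 to 1.19) and miR-133a-5p 1.14 (-1.61 to 3.90). For the skeletal members the values were 0.00 for miR-206-3p (-1.83 to 1.83) and 0.01 for miR-133b-3p (-2.20 to 2.22). These intervals hold differences of at least 3.57-fold upwards in both skeletal members, so equal levels were not shown. miR-499-5p had 0.22 (-0.81 to 1.24), the narrowest interval of the 8. The cardiac miR-208a-3p had 1.86 (standard error 0.95, 95% interval -0.28 to 4.00, edgeR unadjusted p = 0.081, adjusted p = 0.47), and the slow-fibre miR-208b-3p 1.91 (standard error 0.99, 95% interval -0.32 to 4.13, edgeR unadjusted p = 0.085, adjusted p = 0.47). Exact two-sided permutation tests of the log2 CPM gave p between 0.2 and 0.8 for the 8 members, where 0.1 is the smallest that 3 libraries against 3 allow.

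A single library decided the direction of several of these values. Without R-exo replicate 1 the miR-133 miRNAs were all called lower in R-exo, with log2 fold changes of -1.55 for miR-133a-3p, -2.21 for miR-133b-3p and -2.43 for miR-133a-5p (edgeR unadjusted p = 0.025, 0.014 and 0.0093, adjusted p = 0.60 each). Of the 421 miRNAs tested without it, 6.89% were called. Over all alternatives that gave one, the adjusted p of these 3 miRNAs ranged from 0.0029 to 0.99, and its lowest values came from leaving out this library and C-exo replicate 3 together. The log2 fold change of miR-208b-3p fell to 0.14 without the same library.

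Without C-exo replicate 3, miR-1-3p and miR-206-3p were called higher in R-exo instead, with log2 fold changes of 1.43 and 1.34 (edgeR unadjusted p = 0.023 and 0.040, adjusted p = 0.064 and 0.094). miR-208a-3p rose by 2.88 and miR-208b-3p by 2.75 on the log2 scale in this fit (edgeR, adjusted p = 0.043 and 0.047). Over all alternatives the adjusted p of miR-208a-3p ranged from 0.020 to 0.82 and that of miR-208b-3p from 0.047 to 0.94. The 0.020 came from leaving out C-exo replicate 3 and R-exo replicate 1 together. The fit without C-exo replicate 3 alone called 43.1% of 422 tested miRNAs by the criterion and 31.3% at an adjusted p under 0.05, and 4 of the 8 members were called. Its remaining controls, C-exo replicates 1 and 2, had a Spearman rho of 0.902 to 0.958 with the R-exo libraries.

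Leaving out both of these libraries was added after the data were seen, and the pair was picked for the values of the members themselves, so its p-values support nothing. It called 5 of the 8 members, where 45.1% of 406 tested miRNAs were called by the criterion and 36.9% at an adjusted p under 0.05. The miR-133 miRNAs were then lower in R-exo, from -1.61 to -2.68 on the log2 scale, and miR-1-3p and miR-208a-3p higher, at 1.32 and 3.20.

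**Figure D4:**
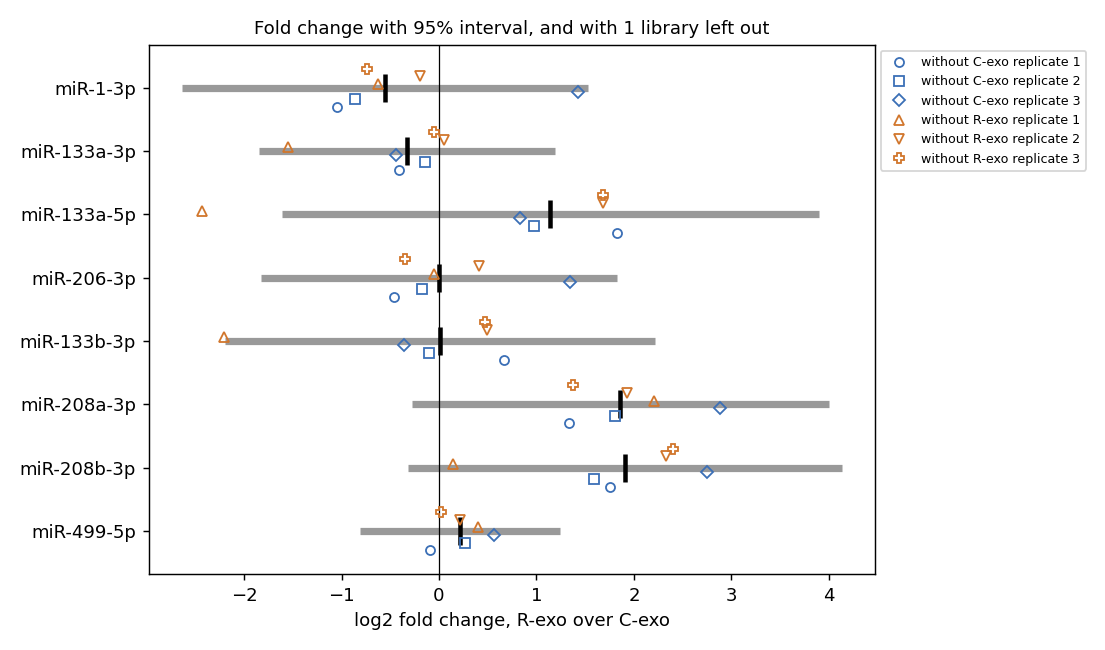
log2 fold change of R-exo over C-exo for each miRNA, where the black mark is the fit with all 6 libraries, the grey bar its 95% interval, and open symbols the 6 fits that each leave out 1 library (blue, a C-exo library; orange, an R-exo library). Every grey bar crosses 0, and without R-exo replicate 1 the values of miR-133a-5p and miR-133b-3p fall to -2.43 and -2.21.

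Lists typical of other tissues also varied between libraries, and most of their sums were carried by 1 miRNA. The red cell list (4 miRNAs, all detected in every library) summed to 198074 CPM in C-exo replicate 1, where miR-1-3p and miR-206-3p were lowest, and to 44536 to 92396 CPM in the other 5. Of that highest sum miR-486, which muscle also makes, held 195795 CPM. The other 3 did not share its order. miR-451-5p ran from 2023 to 6239 CPM and overlapped between the groups. miR-144-3p and miR-144-5p did not overlap and were called higher in R-exo by the criterion, by 1.07 and 1.63 on the log2 scale (edgeR unadjusted p = 0.023 and 0.018, adjusted p = 0.46 each), against the direction of the summed level. Of all tested miRNAs 9.41% were called in this fit, and 12.9% did not overlap. The smooth muscle list (miR-143-3p and miR-145-5p, nearly all miR-143-3p) was at 11011 CPM in that library and at 42830 to 88056 CPM in the others. The platelet and leukocyte list (4 miRNAs) ran from 3553 to 21385 CPM in C-exo and from 11448 to 26859 CPM in R-exo. In C-exo replicate 3, its highest control, miR-142-5p held 18749 CPM, and miR-150-5p (1213, 503 and 1833 CPM) was also highest there among the controls, whereas miR-223-3p (793, 428 and 444 CPM) and miR-142-3p (550, 301 and 359 CPM) were highest in C-exo replicate 1. The liver list (3 miRNAs) was between 76438 and 109248 CPM and the pancreas list (3 miRNAs, nearly all miR-375-3p) between 1673 and 5357 CPM. On the log2 scale miR-122-5p was at -0.65, miR-192-5p at -0.01 and miR-194-5p at 0.56, none of them called. miR-375-3p was at -0.71, whereas miR-217-5p was called higher in R-exo, by 2.30 (edgeR unadjusted p = 0.035, adjusted p = 0.46), with overlapping groups. miR-216a-5p had 0, 0 and 2 reads in C-exo, against 14, 22 and 2 reads in R-exo. The endothelial list was between 4722 and 16771 CPM in C-exo and between 20585 and 30331 CPM in R-exo. This separation was that of miR-126a-3p, since miR-126a-5p had 90.8, 189 and 888 CPM in C-exo, against 530, 750.0 and 315 CPM in R-exo, and overlapped. In R-exo replicate 1, where the miR-133 miRNAs and miR-208b-3p were highest, miR-486 was at its lowest (40875 CPM), miR-451-5p was at 3165 CPM and the liver list at 81303 CPM, both within the range of the other libraries. The part of these lists in the values of the muscle miRNAs was not tested.

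One arm of each stem-loop made up nearly all reads. miR-1-3p had 105136 reads over the 6 libraries and miR-1-5p 0, miR-206-3p had 31393 and miR-206-5p 0, and miR-133b-3p had 14320 and miR-133b-5p 0. miR-208b-5p was also at 0. miR-499-5p had 4379 reads against 3 of miR-499-3p, and miR-208a-3p 109 against 2 of miR-208a-5p. miR-133a had 1580 reads of the 5p arm against 40031 of the 3p arm (3.95%), of which 1143 came from R-exo replicate 1, and without that library 437 against 25402 (1.72%). Its 5p arm was the only other arm of these 7 stem-loops with reads in all 6 libraries. miR-133c, from Mir3582 on the strand opposite Mir133a1, had no reads. Apart from miR-133a-5p, 8 other arms and near copies were listed, of which 3 had any read and 1 (miR-1b) passed the filter on low counts. It had 24.7, 66.3 and 652 CPM in C-exo, against 135, 151 and 230 CPM in R-exo, and 5.79% to 14.4% of the reads of miR-1-3p. As these differ by 1 base, reads could have been split between them, and its log2 fold change was -0.53 (standard error 0.98, edgeR adjusted p = 0.81), which became 1.93 without C-exo replicate 3 (adjusted p = 0.015, range over the alternatives 0.012 to 0.93). The 0.012 came from leaving out C-exo replicate 3 and R-exo replicate 1 together.

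Of 16 miRNAs with described roles in muscle growth or differentiation that are also made in many other tissues, 0 were called by the criterion in either direction (edgeR's quasi-likelihood test), and 0 had an unadjusted p under 0.05, where 9.41% of all tested miRNAs were called. Their median log2 fold change was 0.10, with 8 above and 8 below 0. miR-486, which is abundant in muscle and in red cells, had the smallest p, with 195795, 89943 and 64399 CPM in C-exo, against 40875, 68033 and 57599 CPM in R-exo. R-exo differed by -1.07 on the log2 scale (standard error 0.48, edgeR unadjusted p = 0.052, adjusted p = 0.47). miR-378a-3p, a metabolic miRNA from Ppargc1b, had 122635, 97531 and 24235 CPM in C-exo, against 55707, 24361 and 29048 CPM in R-exo. Both were highest in C-exo replicate 1, the library lowest in miR-1-3p. miR-23a-3p, which represses the atrophy ligases of muscle, was the 1 of the 16 without overlap between groups, where 12.9% of all tested miRNAs had none, at 2599, 2616 and 3118 CPM in C-exo, against 5487, 3389 and 3637 CPM in R-exo (log2 fold change 0.59, standard error 0.41, edgeR adjusted p = 0.51).

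Outside the members, the miRNAs whose log2 CPM was most like that of miR-1-3p over the 6 libraries, by Pearson's r among 396 tested candidates, were miR-199a-3p (r = 0.952, Spearman's rho = 0.94), miR-1b (0.951, 0.83), miR-136-3p (0.937, 0.89), miR-30d-3p (0.911, 0.89) and miR-30b-5p (0.899, 0.60). These values describe 6 points that share their libraries and depth, and were picked as the highest. miR-199a-3p had 448, 1060 and 2084 CPM in C-exo, against 1435, 1262 and 1495 CPM in R-exo, so it shared with miR-1-3p the lowest and the highest library.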

How the data were processed

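Small RNA libraries from plasma exosomes of 3 C-exo and 3 R-exo samples were read on an Illumina HiSeq. The authors deposited a table of raw counts of reads on 763 mature miRNAs per library, without normalization. The processing notes of the submitters name bcl2fastq, BWA and rn6. The source of the miRNA names, how many mismatches were allowed and how a read matching several miRNAs was counted are not given in the sources used here, which bears on miR-133a-3p with miR-133b-3p and on miR-1-3p with miR-1b. Groups and replicate numbers came from the sample titles.

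The tests ran in edgeR 4.0.16 (R 4.3.3). filterByExpr (minimum count 10, minimum total 15) kept 404 of 598 miRNAs with any read, all 8 members among them. After TMM scaling, groups were compared by the quasi-likelihood test without covariates, and p-values were adjusted over the 404 (Benjamini-Hochberg). Standard errors came from the fold change and its F statistic. Log2 CPM used a prior count of 2. Alternatives were RLE factors, library size only, other filters, DESeq2 1.42.0, limma-voom (limma 3.58.1), the replicate number as a block, each library left out, and C-exo replicate 3 with R-exo replicate 1 left out, the last chosen after seeing the data. The script was tested on simulated data. Figures used matplotlib 3.10.9.

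The members, the lists and the tests were chosen with earlier results of these data known, so no p was adjusted over a list. Named miRNAs are the members, those of the fixed lists, and the 5 most like miR-1-3p.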

Additional observations from a re-analysis of the deposited data

How the results depend on the processing

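The number of miRNAs called by the criterion was 38 with all libraries, 63 without the filter on low counts, and 15 to 182 with each library left out, the highest without C-exo replicate 3. With library size only in place of TMM, the tested miRNAs had a median of 0.10 on the log2 scale against -0.05, and the calls were 18 higher and 15 lower in R-exo against 8 and 30. They were 27 higher and 22 lower with limma-voom, and 25 higher and 13 lower with the replicate block. Of the members, 0 were called in the fit as reported, 1 with library size only, 1 without the filter and 1 with DESeq2 (miR-208b-3p each time), 1 with limma-voom and 1 with the replicate block (miR-208a-3p), and 0 to 4 with each library left out. In the 5 of these fits that used all libraries, in that order, 8.17%, 10.5%, 12.1%, 12.1% and 9.41% of the tested miRNAs were called. The fits with 1 library left out called 3.52% to 43.1%. Without R-exo replicate 2 and without R-exo replicate 3 the member called was miR-208b-3p, at 2.33 and 2.40 on the log2 scale. These 2 fits called 3.81% and 3.52% of the tested miRNAs. DESeq2 gave no p for miR-133a-5p, and a minimum of 10 counts in every library left out both miR-208 members.

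Over the 7 log2 fold changes that were not within 0.01 of 0 (6 members and miR-1b), 69 alternative values kept the direction and the side of the threshold, 12 kept the direction and passed it, and 14 changed sign. Under limma-voom miR-1-3p was at 0.44, miR-1b at 0.70, miR-133a-5p at -0.53 and miR-133b-3p at -0.79. In the paired fit, with the replicate number as a block, they were at 0.31, 0.77, -0.64 and -0.82. With at least 10 counts in every library miR-133b-3p was at -0.05. With each library left out, the ranges were -1.05 to 1.43 for miR-1-3p, -1.55 to 0.05 for miR-133a-3p, -2.43 to 1.83 for miR-133a-5p, -0.46 to 1.34 for miR-206-3p, -2.21 to 0.67 for miR-133b-3p, -0.09 to 0.56 for miR-499-5p and -1.02 to 1.93 for miR-1b. miR-208a-3p and miR-208b-3p were above 0 in every fit that tested them, but these fits share their libraries. With each library left out they ranged from 1.33 to 2.88 and from 0.14 to 2.75, the 0.14 without R-exo replicate 1. An alternative with C-exo replicate 3 and R-exo replicate 1 both left out was chosen after seeing the data, by the values of the members, and supports nothing. It called 183 miRNAs and 5 members, and gave 1.32 for miR-1-3p, 2.12 for miR-1b, -2.68 for miR-133a-5p and -2.51 for miR-133b-3p. The cause of these changes was not tested. The replicate numbers pair no animals, and the deviations of same-numbered libraries had correlations of 0.33, -0.28 and 0.28. With miR-133b-3p counted among the shared members, the skeletal share was 11.8% in C-exo and 18.2% in R-exo. Few reads were behind miR-208a-3p and miR-208b-3p, which had at most 45 and 184 in a library, and the effect of depth was not tested.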
